A study of Mus musculus with 9 samples.

Results

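The RNA of 48 lysosomal genes was compared between mouse macrophages of 2 genotypes, Tet2 knockout and wild type. The genes were chosen by name from what their products do, with earlier results of these data known, so counts set against all genes are a description. Of the 48, 12 encode subunits or accessory proteins of the V-ATPase, 9 encode proteins of the lysosomal membrane and 20 encode hydrolases. A further 4 encode soluble activators and carriers, and 3 act on lysosome number or shape (Tfeb, Tfe3 and Lyst). Cathepsins were left out. All 48 were found among the 47731 genes of the RNA count table by their mouse gene identifier. 5-hydroxymethylcytosine (5hmC) was then described in the same genes, using 32 of the 9151 listed 5hmC peaks, which lay inside the bodies of 20 of the 48. RNA depleted of ribosomal RNA was sequenced in 2 knockout and 3 wild-type libraries, and DNA enriched for 5hmC through a biotin tag was sequenced in 2 libraries of each genotype. Per the labels, all were macrophages at passage 0 given M-CSF, the growth factor that macrophages depend on, and the groups differed in the Tet2 genotype alone. The labels give no strain, age, tissue of origin or allele, and they do not say whether libraries came from separate animals or cultures. P-values therefore cover only how far these libraries vary, and that variation may be technical.

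Lysosomes are the acidic compartments in which cells break down proteins, lipids, glycans and engulfed material. The V-ATPase is a rotary proton pump: its cytosolic V1 part splits ATP, and its membrane-embedded V0 part moves protons into the lumen. Hydrolases remove sugars, sulfates and lipids from their substrates at the low pH that the pump maintains, and heavily glycosylated proteins such as LAMP1 and LAMP2 cover the inner face of the lysosomal membrane. Many of these genes are transcribed under TFEB and TFE3, which bind an E-box in their promoters. Macrophages are rich in lysosomes, and osteoclasts, which arise from the same precursors, send lysosomal membrane and V-ATPase to the bone surface. TET2 oxidises 5-methylcytosine in DNA to 5hmC.

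The libraries differed in depth and in more than genotype. RNA libraries held 16053426 to 56394358 counts in genes, and 5hmC libraries held 42489 to 219116 counts in listed peaks. Whole-gene counts of Tet2 were 3732 and 3217 in knockout and 1515, 7399 and 2344 in wild type, which does not show the deletion. A feature of the gene table with KI in its identifier, here read as a knock-in, had 1452 and 2245 counts in knockout and 0 in each wild-type library. Another such feature had 1 and 3 counts in knockout and 0, 6 and 3 in wild type. All 10 macrophage markers were detected in every RNA library, with a summed level of 17670 and 20180 normalised CPM (TMM-scaled counts per 1000000) in knockout and 23150, 14530 and 13780 in wild type, most of it Lyz2 and Adgre1. Single markers differed in both directions. Adgre1, which encodes the F4/80 antigen, was at 7100 and 5726 in knockout and 1588, 2912 and 759 in wild type (DESeq2 adjusted p = 0.0295), and Fcgr1, Itgam and Spi1 were also higher in knockout without overlap. Cd68, a glycoprotein of macrophage lysosomes and endosomes, was at 209 and 359 against 1546, 633 and 663 (DESeq2 adjusted p = 0.0317), and Mertk was at 48.4 and 36.5 against 267, 80.3 and 106 (0.0461). The other 4 markers overlapped, and edgeR called 0 of the 10 after adjustment, while at an unadjusted p under 0.05 there were 2 in each direction. Of 6 B cell markers, 4 passed the filter on low counts. All 4 were higher in knockout without overlap, at an unadjusted p under 0.05 and by DESeq2, and 0 were called by edgeR after adjustment. The 6 summed to 24.4 and 11.7 in knockout and 1.09, 2.72 and 15.1 in wild type, where 14.8 of the 15.1 was Ebf1, a marker that stromal cells also express. Wild-type replicate 1 stood apart: its 8 cell cycle genes summed to 130 normalised CPM, against 994 to 2630 in the other 4 libraries. Wild-type replicate 3 had 4825 normalised CPM over 10 stromal and osteoblast markers, against 7.02 to 20.2 elsewhere. Neutrophil markers summed to 168 in knockout replicate 2 and 152 in wild-type replicate 1, against 1.53 to 9.70 in the other 3. Values without wild-type replicate 1 are given beside several results below. The part of these differences in the results was otherwise not tested.

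Some members hold a promoter motif that TFEB and TFE3 bind, a known trait of lysosomal genes, though promoter letters were not read in choosing them. The 4 promoters shown hold it and belong to the members with the smallest RNA p-values among those that do. The motif is the E-box CACGTG, searched on both strands, which reads the same on each strand. Its longer form TCACGTG, or CACGTGA on the opposite strand, is the core of the element bound by TFEB and TFE3. RefSeq windows in GRCm38.p6 from 250 bases before to 50 bases after a start listed for the gene were matched for 42 of the 48 members. These had 49 windows, and a gene with several windows counted if any held the letters. CACGTG was found in 11 of the 42 (26.2%), and the same 11 held the longer form. The longer form was found for 4.3% of 27025 genes and for 7.1% of the 9935 genes whose RNA was tested here, and the E-box for 8.1% and 11.9%. A match is a description of letters and not of a bound site. The 11 were Arsa, Atp6v0b, Atp6v0d1, Atp6v1a, Cln3, Gaa, Glb1, Lamp1, Mcoln1, Naglu and Sgsh. The 250 bases before the start follow for the glycan hydrolases Sgsh (chr11:119355511-119355760, minus strand), Naglu (chr11:101069844-101070093, plus strand) and Glb1 (chr9:114400828-114401077, plus strand) and for Lamp1 (chr8:13158911-13159160, plus strand), each 5′ to 3′ with the 7-base form in capitals.
Sgsh: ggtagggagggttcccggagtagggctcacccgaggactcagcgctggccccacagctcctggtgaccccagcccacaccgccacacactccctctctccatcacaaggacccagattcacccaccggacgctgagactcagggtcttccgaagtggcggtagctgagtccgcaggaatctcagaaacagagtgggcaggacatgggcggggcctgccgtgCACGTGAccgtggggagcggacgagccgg
Naglu: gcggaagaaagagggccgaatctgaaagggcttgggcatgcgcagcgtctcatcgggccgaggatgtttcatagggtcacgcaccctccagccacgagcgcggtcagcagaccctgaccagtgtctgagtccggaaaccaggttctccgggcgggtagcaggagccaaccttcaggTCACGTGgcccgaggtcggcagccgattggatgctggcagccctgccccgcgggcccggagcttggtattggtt
Glb1: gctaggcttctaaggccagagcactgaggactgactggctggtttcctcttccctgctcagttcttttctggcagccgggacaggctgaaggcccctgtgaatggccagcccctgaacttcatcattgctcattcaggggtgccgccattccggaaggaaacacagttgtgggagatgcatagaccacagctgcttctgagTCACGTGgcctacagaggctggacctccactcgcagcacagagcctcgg
Lamp1: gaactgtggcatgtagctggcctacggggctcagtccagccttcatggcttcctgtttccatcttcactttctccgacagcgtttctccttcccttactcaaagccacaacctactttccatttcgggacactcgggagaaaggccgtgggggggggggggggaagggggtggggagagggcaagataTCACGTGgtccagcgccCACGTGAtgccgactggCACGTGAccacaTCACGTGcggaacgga
Counting the last base before the start as -1, the CACGTG core began at -29 in Sgsh, at -73 in Naglu and at -48 in Glb1. Lamp1 held 4 cores within a short stretch, at -61, -45, -28 and -15. Members with the motif had a median log2 difference in RNA of -0.71 and those with a window but no motif had -0.95, so members with the motif did not have the larger median difference.

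The first comparison asks whether RNA of lysosomal genes differs between the genotypes. Fitted levels were lower in knockout for 47 of 48 members, against 51.6% of the 14851 genes tested, with a median log2 difference (knockout over wild type) of -0.77 against -0.03 over all genes. With scaling to total counts 45 of 48 were lower, Atp6v1b2 and Ids having changed sign. The differences ranged from -2.62 for Psap to 0.22 for Tfe3, the only member with a higher fitted level. In 32 members both knockout libraries lay below all 3 wild-type libraries, against 19% of tested genes, and in 0 did both lie above, against 17.2%. All members passed the filter on low counts, with at least 235 counts in every library. No member passed the edgeR quasi-likelihood test (smallest adjusted p = 0.190, for Atp6v0c), a test that called 0.0135% of genes in either direction and 0% lower. At an unadjusted p under 0.05, 15 members were lower, against 7.86% of genes, and 0 were higher, against 5.95%. The median log2 difference of the members was -0.73 without knockout replicate 1 and -0.81 without knockout replicate 2, fits that leave 1 knockout library. DESeq2, which called 4.53% of genes lower, called 6 members lower: Atp6v0c, Lamp1, Lamp2, Naglu, Sgsh and Psap. It called 0 higher, against 3.18% of genes. DESeq2 was not run without wild-type replicate 1, so whether its calls hold without that library was not tested. Fewer lysosome-rich cells and less RNA per cell cannot be told apart in these bulk libraries.

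Wild-type replicate 1 had the highest level of the 5 libraries in 39 members, against 29.7% of genes. It lay above wild-type replicate 2 in 44 of 48 members and above replicate 3 in 41, whereas all genes were above in 51.1% and 55.7%. Replicates 2 and 3 were evenly placed, with 23 of 48 members higher in replicate 2. Without wild-type replicate 1, fitted levels were lower in knockout for 44 of 48 members, against 52.7% of genes, and the median log2 difference was -0.47. In this smaller comparison the groups did not overlap in 33 members, all lower, against 22.8% of genes. At an unadjusted p under 0.05, 16 were lower (6.82% of genes) and 0 passed the adjusted threshold in edgeR. Without wild-type replicate 3, the library with stromal markers, 47 of 48 were lower and the median log2 difference was -0.78.

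**Figure D1:**
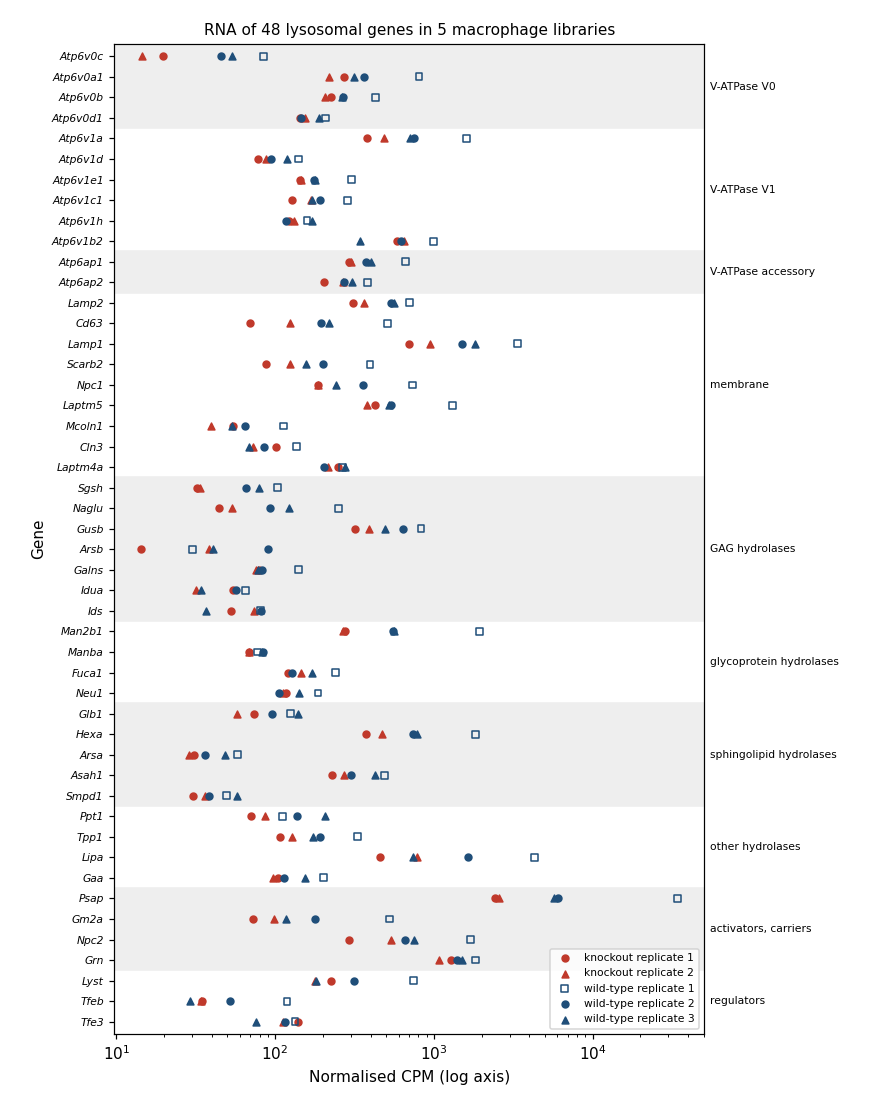
Normalised CPM (log axis) of each of the 48 genes, grouped by role, with 1 point for each of the 5 RNA libraries. Knockout points (red) lie below all wild-type points (blue) in 32 rows, and wild-type replicate 1 (open square) is the rightmost point in 39.

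The proton pump showed lower fitted levels in all 12 members, with a median log2 difference of -0.57. The genotypes did not overlap in 9, against 19% of tested genes lower without overlap. Without wild-type replicate 1 the median was -0.34. Of the V0 subunits, Atp6v0c, which forms most of the proton-carrying ring, differed the most. It was at 19.7 and 14.6 normalised CPM in the knockout libraries and 84.4, 45.4 and 53.5 in wild type, so each wild-type library was more than double the higher knockout library. The fitted log2 difference was -1.83 ± 0.36 (SE), with means of 17.2 ± 3.64 (SD, n = 2) and 61.1 ± 20.6 (SD, n = 3), and DESeq2 gave an adjusted p of 3.5e-04 where edgeR gave 0.190. Without wild-type replicate 1 its log2 difference was -1.57 (edgeR adjusted p = 0.223). Atp6v0a1, the subunit that lines the proton path, was at 273 and 220 in knockout and 807, 363 and 316 in wild type. Its log2 difference of -1.01 became -0.49 without wild-type replicate 1. Atp6v0b, another ring subunit, was at 225 and 205 against 431, 268 and 264 normalised CPM, without overlap. Atp6v0d1, which joins the ring to the central stalk, was at 143 and 155 against 207, 146 and 188, with overlap, and had the smallest V0 difference (log2 -0.27).

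Among the V1 subunits, Atp6v1a, which carries the catalytic ATP-binding site, was at 377 and 488 normalised CPM in the knockout libraries and 1598, 746 and 707 in wild type (log2 -1.23 ± 0.48, edgeR adjusted p = 0.348). Its groups did not overlap, and the log2 difference was -0.78 without wild-type replicate 1. Atp6v1d, part of the turning central stalk, was at 78.2 and 87.3 against 141, 94.4 and 119. Atp6v1e1, part of the outer stalks, was at 144 and 146 against 301, 176 and 178. Both pairs of groups were apart, by a small margin for the former. Atp6v1b2, the partner of the catalytic subunit, behaved differently: it was at 582 and 653 in knockout and 997, 624 and 343 in wild type, so the knockout values lay inside the wild-type range. Its log2 difference was -0.09 and changed to 0.33 without wild-type replicate 1. Of the other V1 members, Atp6v1c1 had no overlap (log2 -0.55) and Atp6v1h overlapped (log2 -0.23). The accessory proteins, which assemble or attach to the pump, were both lower without overlap. Atp6ap1 was at 290 and 300 against 664, 372 and 402 normalised CPM, and Atp6ap2, also known as the prorenin receptor, was at 203 and 267 against 383, 272 and 304. Their log2 differences were -0.70 and -0.44.

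The 9 membrane proteins all had lower fitted levels, with a median log2 difference of -0.98 (-0.71 without wild-type replicate 1). The genotypes did not overlap in 6, against 19% of tested genes lower without overlap. Lamp1 (chromosome 8, 13159161 to 13175338) was at 700 and 942 normalised CPM in the knockout libraries and 3367, 1499 and 1828 in wild type. Lamp2, which also serves chaperone-mediated autophagy, was at 310 and 361 against 705, 536 and 559. For both, the lowest wild-type library exceeded the higher knockout library by more than the knockout libraries differed between themselves. Lamp1 had a log2 difference of -1.44 ± 0.48 (edgeR adjusted p = 0.298; DESeq2 0.0325), and Lamp2 had -0.84 ± 0.26 (edgeR adjusted p = 0.275; DESeq2 0.00995). These became -1.06 and -0.74 without wild-type replicate 1. Cd63, a tetraspanin of late endosomes and lysosomes, was at 69.9 and 124 against 511, 194 and 219, without overlap (log2 -1.67, or -1.12 without wild-type replicate 1; DESeq2 adjusted p = 0.0557). Scarb2, the receptor that carries glucocerebrosidase to lysosomes, Npc1, the membrane cholesterol transporter, and Laptm5, a membrane protein of blood cells, were also lower without overlap, at log2 differences of -1.24, -1.25 and -0.98 (-0.77, -0.71 and -0.43 without wild-type replicate 1). The remaining 3 overlapped. Mcoln1, a lysosomal calcium channel, had a log2 difference of -0.71, and Cln3, the membrane protein lost in juvenile Batten disease, had -0.17 (0.14 without wild-type replicate 1). Laptm4a, nearest to 0 at -0.10, was at 248 and 215 in knockout and 266, 203 and 277 in wild type.

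The 20 hydrolases all had lower fitted levels as well, with a median log2 difference of -0.78 (-0.62 without wild-type replicate 1). No overlap was seen in 13 of these hydrolases, against 19% of tested genes lower without overlap. Those that degrade glycosaminoglycans, the long sugar chains of proteoglycans, were led by 2 enzymes of heparan sulfate breakdown. Sgsh (chromosome 11, 119343489 to 119355510), which removes N-linked sulfate, was at 32.4 and 33.8 normalised CPM in the knockout libraries and 103, 65.7 and 78.9 in wild type. The knockout libraries differed little from each other, and the lowest wild-type library was nearly double their level. Its log2 difference of -1.32 ± 0.26 had a small SE for its size (means 33.1 ± 1.02 and 82.5 ± 18.9; edgeR adjusted p = 0.190; DESeq2 5.8e-04) and was -1.16 without wild-type replicate 1. Naglu (chromosome 11, 101070090 to 101077672), which removes N-acetylglucosamine, was at 44.0 and 53.8 against 252, 93.0 and 123. It had a log2 difference of -1.67 ± 0.49 (edgeR adjusted p = 0.258; DESeq2 0.0272), or -1.18 without wild-type replicate 1. Gusb, the beta-glucuronidase of several such chains, was at 319 and 390 against 829, 638 and 493, also without overlap (log2 -0.88). The other 4 of this group overlapped. Ids, which removes iduronate sulfate, was nearest to 0 (log2 -0.07), at 52.5 and 73.8 against 80.6, 81.4 and 36.7 normalised CPM. Arsb, Galns and Idua, which act on dermatan, keratan and heparan sulfates, had log2 differences of -1.02, -0.38 and -0.28.

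Of the 4 hydrolases that trim glycoproteins, 2 had no overlap. Man2b1, the main lysosomal alpha-mannosidase, was at 274 and 266 normalised CPM in the knockout libraries and 1936, 553 and 559 in wild type. Wild-type replicate 1 was more than 3 times the other wild-type libraries, and the log2 difference of -1.91 ± 0.69 became -1.07 ± 0.25 without it. Manba, the beta-mannosidase, gave the smallest difference of this group (log2 -0.24), with no overlap between narrow groups: 68.7 and 68.8 against 77.7, 83.98 and 82.7. Fuca1, which removes fucose, overlapped at 120 and 145 against 240, 128 and 170. Neu1, the sialidase, also overlapped, at a log2 difference of -0.33.

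The 5 enzymes of sphingolipid breakdown had lower levels without overlap in every case, at log2 differences from -1.40 to -0.54. Glb1, the beta-galactosidase of gangliosides and keratan sulfate, was at 73.8 and 57.2 normalised CPM in the knockout libraries and 126, 95.4 and 140 in wild type. Its log2 difference of -0.88 ± 0.26 (edgeR adjusted p = 0.265) was -0.89 without wild-type replicate 1, so that library did not set it. Hexa, the alpha subunit of beta-hexosaminidase, was at 376 and 474 against 1837, 739 and 780 and had log2 -1.40, or -0.87 without that library. Arsa, which removes sulfate from sulfatide, was at 30.6 and 28.5 against 58.1, 36.2 and 48.6. Smpd1, the acid sphingomyelinase, was at 30.5 and 36.1 against 49.5, 38.4 and 57.8 and had the smallest difference of the 5. Asah1, the acid ceramidase, had log2 -0.68.

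The 4 other hydrolases act on lipids, peptides, thioesters and glycogen. Ppt1, which removes palmitate from proteins, was at 70.3 and 86.4 normalised CPM in the knockout libraries and 111, 138 and 208 in wild type. Here wild-type replicate 1 was the lowest of its group, and the log2 difference of -0.96 became -1.18 without it. Tpp1, a tripeptidyl peptidase, was at 108 and 128 against 329, 191 and 174 (log2 -0.98). Lipa, which frees cholesterol from its esters, spread the most: 455 and 781 in knockout and 4307, 1632 and 735 in wild type, with overlap and a log2 difference of -1.85 ± 0.83 (-0.95 without wild-type replicate 1). Gaa, the glycogen-degrading alpha-glucosidase, was at 104 and 97.4 against 202, 114 and 155, without overlap (log2 -0.64).

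Soluble activators and carriers present lipids to hydrolases or move them. With all 5 libraries they had the lowest group median (log2 -1.497), and none of the 4 overlapped. That ranking was not kept without wild-type replicate 1. Psap, Gm2a, Npc2 and Grn were then at log2 -1.27, -0.81, -0.79 and -0.34. In the group of other hydrolases Ppt1, Lipa, Tpp1 and Gaa were at -1.18, -0.95, -0.66 and -0.45. Psap (chromosome 10, 60277628 to 60302600) encodes prosaposin, the precursor of the saposins that activate sphingolipid hydrolases. It was at 2411 and 2572 normalised CPM in the knockout libraries and 34060, 6055 and 5685 in wild type. Wild-type replicates 2 and 3 lay close together above the knockout libraries, and replicate 1 lay far above both. Psap alone took 2.84% of all counts in genes there, against 0.642% and 0.603% in the other wild-type libraries and 0.246% and 0.265% in knockout. The log2 difference of -2.62 ± 1.06 (edgeR adjusted p = 0.366; DESeq2 0.0430) became -1.27 ± 0.36 without wild-type replicate 1. Gm2a, the activator that lifts GM2 ganglioside from membranes, was at 72.9 and 97.8 against 527, 178 and 117, and its log2 difference of -1.68 became -0.81. Npc2, which hands cholesterol to NPC1, was at 293 and 540 against 1700, 658 and 749, with log2 -1.31 becoming -0.79. Grn, the precursor of the granulins, differed the least, at 1283 and 1075 against 1831, 1392 and 1514 (log2 -0.42).

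The 3 regulators overlapped between genotypes. Tfeb, the transcription factor that drives many lysosomal genes, was at 34.7 and 34.2 normalised CPM in the knockout libraries and 119, 51.8 and 29.1 in wild type. The knockout values lay inside the wild-type range, and the log2 difference of -0.95 ± 0.60 (edgeR adjusted p = 0.533) became -0.25 without wild-type replicate 1. Tfe3, its relative, was at 140 and 113 against 134, 116 and 76.0 (log2 0.22 ± 0.30). Lyst, which limits lysosome size and is mutated in Chediak-Higashi syndrome, was at 225 and 180 against 742, 316 and 180, and its log2 difference of -1.03 became -0.31 without that library.

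**Figure D2:**
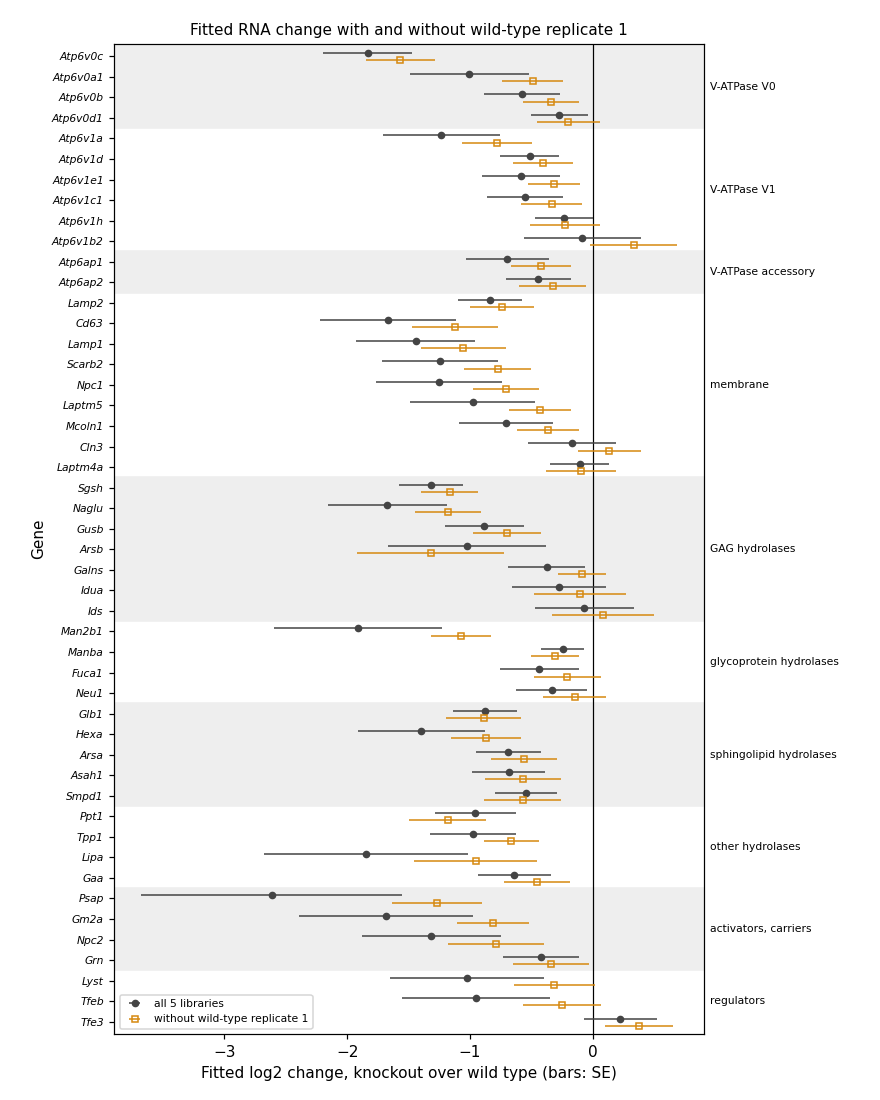
Fitted log2 difference, knockout over wild type, of the 48 genes with bars for the SE, from all 5 libraries (filled circles) and without wild-type replicate 1 (open squares). Most squares lie nearer 0 than their circles (for Psap -1.27 against -2.62), 44 of 48 remain below 0, and Atp6v1b2, Cln3 and Ids cross it.

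The summed share of the 48 genes in all counts in genes gives the same order of libraries. It was 1.21% and 1.35% in knockout, 2.24% and 2.13% in wild-type replicates 2 and 3, and 5.34% in wild-type replicate 1. Psap made up much of the last value, and the 47 others summed to 9469 and 10560 normalised CPM in the knockout libraries and 30090, 15060 and 14360 in wild type. Knockout was thus below each wild-type library with and without Psap. Cell cycle genes were lowest in wild-type replicate 1: the median level of 8 such genes, centred on the 5-library mean of each gene, was -2.96 on the log2 scale there, where the median of V-ATPase genes was 0.70 and that of membrane genes 1.21. In the other 4 libraries cell cycle genes lay between -0.11 and 1.20, and both lysosomal medians lay between -0.61 and 0.09.

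**Figure D3:**
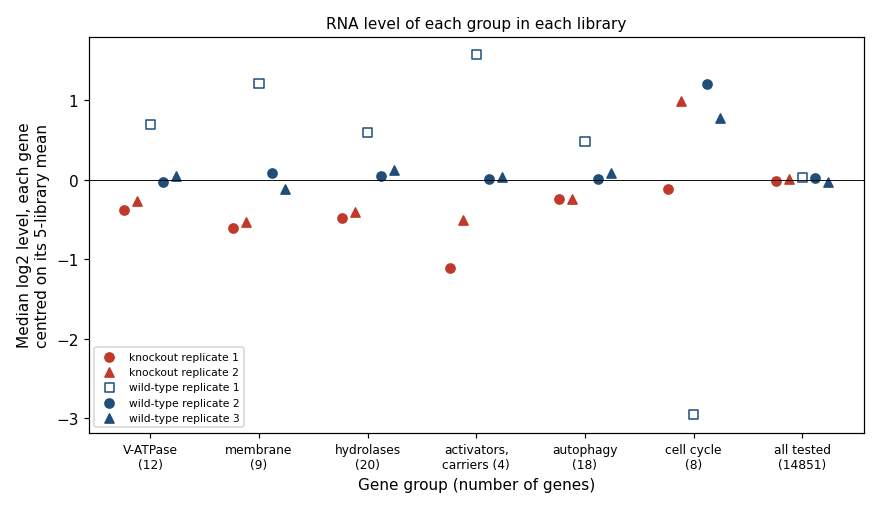
Median log2 level of each gene group in each of the 5 RNA libraries, every gene centred on its own mean. Wild-type replicate 1 (open square) is highest for the lysosomal and autophagy groups and lowest for the 8 cell cycle genes (-2.96), and knockout libraries (red) are below 0 in all 5 lysosomal and autophagy groups.

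Further genes of the pathway, listed beside the members, mostly shared the direction, and 0 of them passed the adjusted threshold in edgeR. Of all 14851 tested genes, 51.6% had a lower fitted level. At an unadjusted edgeR p under 0.05, 7.86% were lower and 5.95% higher. Of 19 further hydrolases and proteins of their maturation, 15 had a lower fitted level (median log2 -0.73, or -0.43 without wild-type replicate 1), 7 of them at an unadjusted p under 0.05 and 0 higher at that p. Sort1, a sorting receptor for hydrolases, was at 24.2 and 40.4 normalised CPM in the knockout libraries and 317, 144 and 88.6 in wild type (edgeR adjusted p = 0.233; DESeq2 0.00303). Its groups did not overlap, and its log2 difference of -2.50 became -1.87 without wild-type replicate 1. Of 11 further V-ATPase subunits, 7 passed the filter on low counts and 5 of these were lower. Atp6v0d2, the V0 subunit found in osteoclasts and some macrophages, was at 5.19 and 33.7 against 931, 153 and 226, without overlap (log2 -4.48 ± 1.30, or -3.32 without wild-type replicate 1; edgeR adjusted p = 0.256; DESeq2 8.3e-04). The osteoclast markers, of which Atp6v0d2 is 1 of 9, differed in both directions. Mmp9, a secreted matrix protease, was at 754.5 and 634 in knockout and 1.57, 68.4 and 3.39 in wild type (log2 4.82; DESeq2 adjusted p = 0.0118). Itgb3, an integrin subunit, was at 1.89 and 4.15 against 53.1, 15.2 and 21.1 (log2 -3.29; DESeq2 adjusted p = 2.5e-04). Of the 7 tested markers DESeq2 called 2 lower and 1 higher and edgeR called 0 after adjustment, with the same 2 and 1 at an unadjusted p under 0.05; their part in the Atp6v0d2 difference was not tested. Atp6v1f, a V1 subunit, was at 59.9 and 73.6 against 120, 76.0 and 117.

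Of 21 genes listed for the control of TFEB at the lysosomal surface, 17 were lower, against 51.6% of tested genes. The median log2 difference was -0.45, or -0.28 without wild-type replicate 1. At an unadjusted edgeR p under 0.05, 6 were lower, against 7.86% of genes, and 0 higher, against 5.95%. The list includes Mitf and Tfec, transcription factors related to TFEB, which were both lower, and Tfec is among the 6. Rragd, a small GTPase that brings TFEB and mTORC1 to the lysosome, was at 2.99 and 6.66 normalised CPM in the knockout libraries and 86.9, 24.4 and 44.6 in wild type (log2 -3.42 ± 0.72; edgeR adjusted p = 0.199; DESeq2 6.2e-05). Lamtor3, part of the anchor of these GTPases, was at 44.6 and 42.3 against 96.01, 66.1 and 77.5. Of 18 autophagy genes, 17 were lower (median log2 -0.40, or -0.30 without wild-type replicate 1), 4 of them at an unadjusted p under 0.05. Map1lc3a and Map1lc3b, which encode the LC3 proteins of the autophagosome membrane, were at 2.75 and 3.27 against 21.8, 7.57 and 17.6 and at 60.1 and 64.3 against 169, 99.3 and 118. In all 4 of these genes the knockout libraries lay below every wild-type library. Without wild-type replicate 1 the log2 differences were -2.87 for Rragd, -0.76 for Lamtor3, -2.11 for Map1lc3a and -0.84 for Map1lc3b.

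The 5hmC comparison asks where the mark differs inside these genes. Listed peaks lay in 20 of 48 members (41.7%), against 16.6% of all 21900 protein-coding genes and 27% of the 11714 whose RNA was tested, at median body lengths of 23.2, 17.1 and 23.8 kb. Of the 32 member peaks, 23 had been called in wild type, 6 in knockout and 3 in both (71.9%, 18.8% and 9.38%, against 77%, 12.6% and 10.4% of all listed peaks). Per 100000 counts in listed peaks (below, per 100000), they summed to 379 and 370 in knockout and 389 and 404 in wild type over 13.5 kb, so their total share was alike in all 4 libraries. Both knockout libraries lay below both wild-type libraries in 14 of the 32, against 47.5% of all peaks, and above both in 8, against 18.3%. Those shares follow the genotype a peak was called in: all 14 lower peaks had been called in wild type, and all 6 called in knockout were higher. Calling a peak from 1 genotype biases its counts toward that genotype, and these shares are given as a description.

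**Figure D4:**
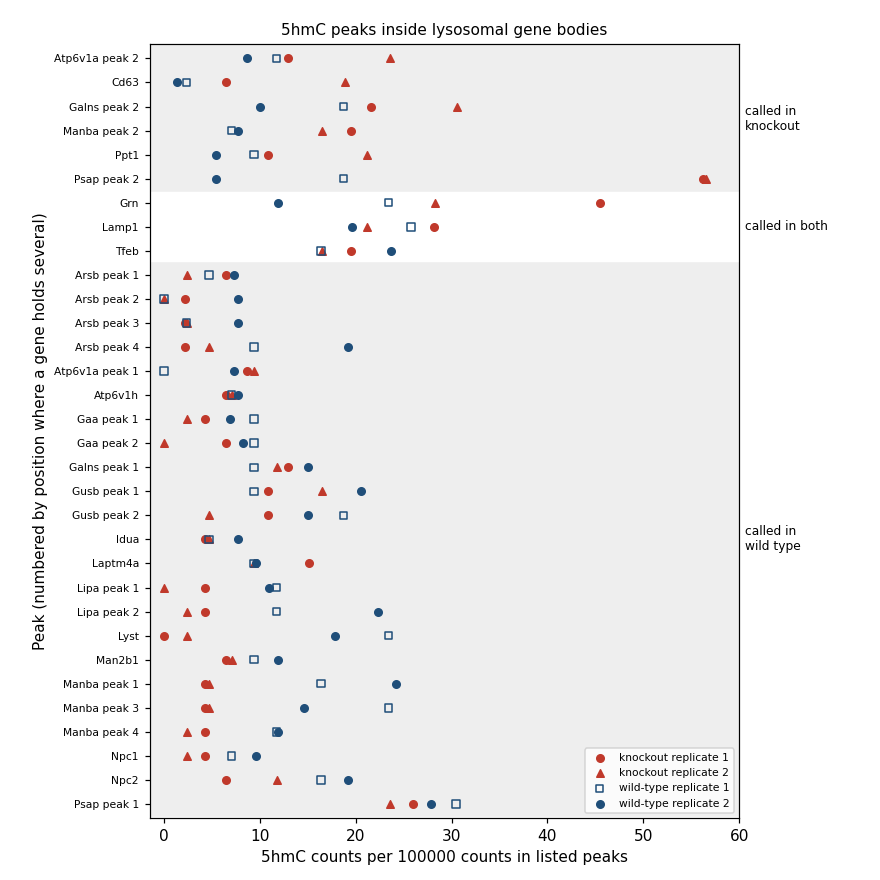
5hmC counts per 100000 counts in listed peaks for the 32 peaks inside lysosomal genes, grouped by the genotype in which the authors' list shows the peak, with 1 point for each of the 4 libraries. The Psap peak 2 (56.2 and 56.5 in knockout, 18.7 and 5.48 in wild type) is the highest in knockout.

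The pair of knockout 5hmC libraries were closer to each other than independent sampling of counts gives (over 2544 peaks, chi-square was 0.575 per degree of freedom, lower-tail p = 2.6e-73, against 1.20 over 8647 peaks for wild type) and were counted as 1 sample against 2. Of 1167 peaks with enough counts to test, edgeR called 377 higher (32.3%) and 5 lower (0.428%) in knockout. That split depends on the scaling: with total counts 145 of 941 tested peaks were higher (15.4%) and 18 lower (1.91%), with TMM factors from the tested peaks alone 154 were higher (16.4%) and 30 lower (3.19%), and with factors from all peaks applied to the totals of the tested peaks 142 were higher and 124 lower. The median log2 difference of tested peaks was 1.06, -0.19, -0.24 and -0.03 in these 4 fits. The filter on counts, which asks for a minimum level in at least 1 sample and has the knockout as 1 sample, kept 26.9% of all peaks listed for knockout and 5% of those listed for wild type. Of the 32 member peaks it kept 8, namely 4 of 6 listed for knockout, 1 of 23 listed for wild type and all 3 listed for both. Of these 8, 4 were called, each higher in knockout. Since so few peaks listed for wild type were admitted, the direction of these calls is a description of the tested peaks and says nothing of the members as a whole. The Psap peak near the 3′ end was called higher in this fit and in all 16 alternatives. It had been listed for knockout, and every alternative used the same peak list. Of all peaks listed for knockout, 92.1% were higher in both knockout libraries, so the repeated call is a description. The other 3 calls (Grn, Galns and Manba) were lost with total-count scaling, where Manba could not be tested. Without wild-type replicate 2, the deepest library, the Psap peak was the 1 member peak called.

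Psap held 2 peaks (coordinates here as the authors' GRCm38 table gives them). The one at chromosome 10, 60301720 to 60302200, called in knockout, lay 97.4% of the way along the gene body. It had 26 and 24 counts in knockout and 8 and 12 in wild type, or 56.2 and 56.5 per 100000 against 18.7 and 5.48. Knockout was above wild type by more than the wild-type libraries differed, with a log2 difference of 3.42 ± 0.49 (edgeR adjusted p = 1.5e-10), and 1.95 to 3.79 over the alternatives (adjusted p 5.7e-11 to 0.0084). Since the peak had been called in knockout, its counts are biased toward that genotype, and the p-values are a description. The other, at 60279900 to 60280452 and 10.2% along the body, had 12 and 10 counts against 13 and 61, or 26.0 and 23.5 per 100000 against 30.5 and 27.8. Its log2 difference was 0.37 (edgeR adjusted p = 0.570) and took values from -0.75 to 0.37 over the alternatives, changing sign in 7 of 16.

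Grn also held a peak near its 3′ end, 95.8% along its body (chromosome 11, 102436321 to 102436774), listed for both genotypes. It had 21 and 12 counts in knockout and 10 and 26 in wild type, or 45.4 and 28.2 per 100000 against 23.4 and 11.9. The groups did not overlap, though the gap between them was smaller than the gap within either. The log2 difference was 1.98 ± 0.51 (edgeR adjusted p = 8.4e-04), 1.42 with total-count scaling (adjusted p = 0.053), and above 0 in all 16 alternatives, 6 of which called it. The Galns peak at chromosome 8, 122585616 to 122586038, was at 21.6 and 30.6 per 100000 against 18.7 and 10.04 (10, 13, 8 and 22 counts), and the Manba peak at chromosome 3, 135516970 to 135517326, at 19.5 and 16.5 against 7.03 and 7.76 (9, 7, 3 and 17 counts). Both were called in knockout, with the same bias, and lay close to the threshold, at edgeR adjusted p of 0.0461 and 0.050. Of 16 alternatives for Galns 5 called it, and of the 6 that tested Manba 0 did.

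The 4 remaining tested peaks were not called. In Lamp1 the peak at chromosome 8, 13162090 to 13162476, 3.12 kb from the start, was at 28.1 and 21.2 per 100000 in knockout and 25.8 and 19.6 in wild type, with overlap. In Tfeb the peak at chromosome 17, 47756968 to 47757371, was at 19.5 and 16.5 against 16.4 and 23.7, also with overlap. Their log2 differences were 0.82 ± 0.55 and 0.26 ± 0.62 (edgeR adjusted p = 0.233 and 0.738), and both took values below 0 under other scalings. The second Atp6v1a peak (chromosome 16, 44119668 to 44119939) was at 12.98 and 23.5 against 11.7 and 8.67 (log2 1.49 ± 0.76, edgeR adjusted p = 0.115).

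Of the 14 peaks that were lower in both knockout libraries, all but the first Psap peak did not pass the filter on counts. The untested peaks with the most counts were a Manba peak 13.4 kb from the start (chromosome 3, 135498747 to 135499361), a Gusb peak (chromosome 5, 129994990 to 129995558), a Lipa peak 2.79 kb from the start (chromosome 19, 34524477 to 34524888) and the Npc2 peak (chromosome 12, 84756074 to 84756541), all called in wild type. The Manba peak had 2 and 2 counts in knockout and 7 and 53 in wild type, or 4.33 and 4.71 per 100000 against 16.4 and 24.2. The Gusb peak was at 10.8 and 16.5 against 9.37 and 20.5, with overlap. The Lipa peak was at 4.33 and 2.35 against 11.7 and 22.4, and the Npc2 peak at 6.49 and 11.8 against 16.4 and 19.2, both without overlap. The Lyst peak (chromosome 13, 13637659 to 13638384), named after its values were seen, had 0 and 1 counts in knockout and 10 and 39 in wild type. A count of 0 in knockout replicate 1 allows up to 6.49 per 100000, while wild type was at 23.4 and 17.8. It passed the filter and was called lower when TMM factors came from the tested peaks alone (log2 -3.99, edgeR adjusted p = 0.0336).

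Counts summed over all peaks of a gene were tested for 1363 genes, of which edgeR called 220 higher (16.1%) and 13 lower (0.954%) in knockout. Of 10 member sums tested, 3 were called, all higher: Psap (38 and 34 counts against 21 and 73, log2 1.74, adjusted p = 1.1e-06), Grn (log2 1.93, adjusted p = 0.00989) and Galns (log2 1.14, adjusted p = 0.0496). The Psap and Galns sums each hold a peak called in knockout and share its bias. The Lipa sum was 4 and 1 counts against 10 and 73 (log2 -1.91, edgeR adjusted p = 0.0652) and was called lower in 3 of 7 alternatives. The Arsb sum over 4 peaks was 6 and 4 against 7 and 92 (log2 -1.18, edgeR adjusted p = 0.168) and was called lower in 2 of 7 alternatives. Gusb and Manba sums differed by log2 -0.12 and -0.38 and were called in none of their 10 alternatives. The Atp6v1a sum of 10 and 14 counts against 5 and 35 was higher in fitted level and not called (edgeR adjusted p = 0.115). It was called higher in 2 of 10 alternatives, both with the knockout libraries counted as 2 samples. The Lamp1 and Tfeb sums had log2 differences of 0.81 and 0.26 and were not called, and that of Tfeb was below 0 under other scalings. Set beside RNA, where no member was called by edgeR, the 10 sums fell both ways. A higher fitted 5hmC level with a lower fitted RNA level was seen in 6 (Psap, Grn, Galns, Atp6v1a, Lamp1 and Tfeb). In 4 both were lower (Lipa, Arsb, Gusb and Manba). Of all 1363 tested sums, 36.1% had a lower fitted 5hmC level, so most were higher under this scaling. The Lamp1 and Tfeb sums also overlapped between genotypes. The split is therefore a description, and whether the 5hmC and RNA differences are related was not tested. Members with a listed peak had a median RNA log2 difference of -0.99 and those without one had -0.69, with ranges from -2.62 to -0.10 and from -1.83 to 0.22.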

How the data were processed

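The authors deposited raw counts, per gene for RNA and per peak for 5hmC. CASAVA 1.4, HTSeq, STAR, BWA, MACS2 and Trim Galore are listed, with the build GRCm38, per the submitters' processing notes. Their roles, the annotation, the strand setting and the handling of duplicates: not given in the sources used here. Peaks had been called per genotype, per the peak names in the file. Members, gene lists, roles and naming rules were chosen with earlier results of these data known. Values in every library were given for Lamp1, Lamp2, Tfeb, Tfe3, the 3 members of each role group with the smallest p, the one nearest 0, any with a higher fitted level, 2 genes of each other list, tested peaks and the untested peaks with most counts. 1 gene that this rule names is not reported here.

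RNA and 5hmC were fitted separately in R 4.3.3 by edgeR 4.0.16 (glmQLFit, glmQLFTest, filterByExpr, TMM, two-sided, Benjamini-Hochberg over all tested features, threshold 0.05). Normalised CPM are counts per 1000000 of TMM-scaled library size. The knockout 5hmC libraries entered as their unrounded mean, since they differed by less than sampling noise, so the spread comes from 2 wild-type libraries. The plan scaled peaks by TMM over all listed peaks. A first run had scaled over tested peaks, and 8 combinations of scaling and rounding were then compared before the planned one was kept, so its calls were seen beside the others. The KO mean rounded, other TMM scalings of peaks and DESeq2 after filterByExpr were chosen after seeing the data. DESeq2 1.42.0, limma-voom (limma 3.58.1), other scalings and filters, leaving out each replicate and a replicate block were planned. The fits were also run on simulated counts. For RNA these had the same spread for every gene and no outlying library, so they do not test a library like wild-type replicate 1. Gene bodies and promoters came from RefSeq tables for GRCm38.p6, without exons; strand was taken from the promoter table. A peak counted for a gene if it overlapped the body by 1 base. Shares of genes with a peak, positions along bodies and counts at an unadjusted p were added after values were seen. Intervals and floors cover counting error only. Replicate numbers were not used to pair samples in the main fits, since the labels do not say what they mark.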

Additional observations from a re-analysis of the deposited data

How the results depend on the processing

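Direction in RNA was stable and calls were not. Of 624 member values under alternatives, 600 kept direction and side of the threshold, 13 passed under DESeq2 alone and 11 changed sign: Atp6v1b2 (0.03 with total-count scaling, 0.01 without knockout replicate 1, 0.33 without wild-type replicate 1), Ids (0.01 with total counts and with limma-voom, 0.17 without knockout replicate 1, 0.08 and 0.11 without wild-type replicates 1 and 2), Cln3 (0.04 without knockout replicate 2, 0.14 without wild-type replicate 1) and Idua (0.04 without knockout replicate 2). Leaving out 1 library, these 4 ranged from -0.39 to 0.33, -0.36 to 0.17, -0.41 to 0.14 and -0.69 to 0.04. The cause was not tested. Against 2 genes called over all 14851, counts were 0 with total-count scaling, a mean count of at least 10 or the replicate block and 0 when any library was left out, 1 with limma-voom, 1234 with DESeq2 and 1211 with DESeq2 after filterByExpr. Members called were 6 and 7 with the 2 DESeq2 runs and 0 otherwise. Leaving out 1 wild-type library gave 16 to 22 members lower at an unadjusted p under 0.05, against 6.82% to 9.96% of genes. Such counts are not given for fits that leave 1 knockout library, whose spread comes from wild type alone. Leaving out any 1 library gave a median of -0.86 to -0.47, the latter without wild-type replicate 1.

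The replicate block uses numbers that the labels do not tie to animals or days, and same-numbered libraries did not deviate together (correlation over genes 0.07 for replicate 1 and -0.09 for replicate 2 in RNA, 0.003 over peaks). With it 47 members stayed lower (median log2 -0.75). For 5hmC the block was fitted with the knockout libraries as 2 samples. That fit tested 5 member peaks and called 3, the same counts as without the block.

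5hmC calls depended on scaling. Against 382 called peaks, counts were 163 with total counts, 184 with TMM over tested peaks (184 with the totals of all peaks), and 169 and 170 for these with the knockout mean rounded. Against 4 member peaks called, there were 1 with total counts, DESeq2 or TMM over all peaks with totals of tested peaks, 2 in the 4 fits with TMM over tested peaks, and 1 to 4 when a library was left out. The Lyst peak was called lower in 7 of 16 alternatives. Against 3 member sums called, there was 1 with TMM over tested peaks (Lipa, lower) and 1 with DESeq2, and 1 to 4 when a library was left out, with 1 without wild-type replicate 2. Signs changed for the Psap peak at 60279900 (-0.25 with TMM over tested peaks under either total, -0.19 with total counts, -0.12 and -0.11 with rounding, -0.74 and -0.75 with totals of tested peaks), the Tfeb peak (-0.35, -0.31, -0.21, -0.20, -0.82 and -0.84 in the same order), the Lamp1 peak (-0.30 and -0.32 with totals of tested peaks) and the Tfeb sum (-0.33 and -0.31). Of 32 member peaks, 24 did not pass the filter on counts. Peaks within 2 kb of a body raised the count from 32 to 34, in 21 members, and 50% overlap left it at 32. Without the bases after the start 10 promoters held the motif.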
